A study of Mus musculus with 2 samples.

Results

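Ionotropic glutamate receptor subunits were followed through the cell classes of the mouse ventral parafacial region with 9 genes, *Gria1*, *Gria2*, *Gria3*, *Gria4*, *Grin1*, *Grin2a*, *Grin2b*, *Grin3a* and *Grik2*. They were taken by gene symbol out of 28692 genes in the count tables, and their UMIs were summed over the cells of 9 classes, each gated by a marker gene. Ionotropic glutamate receptors are cation channels that open when glutamate binds and carry most fast excitatory transmission in the brain. AMPA receptors assemble from the products of the Gria genes, and the GluA2 subunit, in its edited form, keeps calcium out of the channel. NMDA receptors need GluN1, which joins with GluN2 subunits or with GluN3A, and kainate receptors are built from the Grik genes.

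The study profiled single cells dissociated from slices of the region that holds the retrotrapezoid nucleus, a brainstem site of breathing control. Both groups were wild type C57BL/6J mice, 10 days old. The untreated group and the 4OH-tamoxifen group, which received the active form of the Cre-inducing drug as 0.2 mg on each of 3 days, had 1 library each, made from 8 mice (4 male and 4 female) whose cells were pooled. Library, treatment and batch are therefore the same split and cannot be told apart, and the mice of a pool cannot be separated. The 10x libraries (v2 chemistry) count unique molecular identifiers (UMIs) at the 3′ ends of transcripts, so they give levels of genes and not of splice forms, of RNA editing or of protein.

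The untreated library held 18496942 UMIs in 3767 barcodes (median 3455) and the 4OH-tamoxifen library 34704167 UMIs in 10241 barcodes (median 2316). After filtering, 3339 and 8558 cells remained, and 2025 and 5278 of them passed a gate. All pairs of values below are in the order untreated, then 4OH-tamoxifen. Neurons needed UMIs of at least 2 of 4 general neuronal genes and split into *Nmb* neurons, the chemosensitive retrotrapezoid type (22 and 54 cells), other *Slc17a6* glutamatergic neurons (20 and 81), *Slc32a1* inhibitory neurons (82 and 297) and *Chat* cholinergic neurons (19 and 85). Glial gates took *Aqp4* cells, which are astrocyte-like (765 and 1612), *Pdgfra* oligodendrocyte precursors (170 and 464), *Gpr17* committed precursors (342 and 1247), *Mog* oligodendrocytes (265 and 886) and *C1qa* microglia (340 and 552). The libraries had 40 barcode sequences in common, 32 of them among the kept cells, of which 15 passed a gate in both libraries and 6 fell in the same class.

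The class names were checked against 6 further markers each, counted when past 2-fold over the other classes in both libraries. All 6 passed for *Nmb*, *Chat*, *Aqp4*, *Gpr17* and *C1qa* cells, and 5 of 6 for *Slc32a1*, *Pdgfra* and *Mog* cells. *Gal* in *Nmb* neurons, at 4984 and 3426 counts per 1000000 UMIs (CPM), was 647 and 434 times its level in the other classes. The *Slc17a6* neurons passed with 4 of 6, since *Cdh9* and *Slc17a8* had 0 UMIs in the untreated library, and are best described as a mixed class of glutamatergic neurons with under 2 *Nmb* UMIs. *Mbp* missed in *Mog* cells, at 17718 and 17942 CPM with folds of 1.78 and 1.41 over the other classes. *Slc6a9* in *Slc32a1* cells (31.9 and 35.8 CPM) was highest in *Aqp4* cells, and *Sox10* in *Pdgfra* cells (354 and 263 CPM) was highest in *Gpr17* cells.

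Levels are given as CPM of a class sum, with exact Poisson 95% intervals that cover counting error only. UMIs count molecules and were not divided by gene length, and differences in capture between genes were not measured. In total the 9 members took 2574 and 2453 CPM in *Chat* neurons, the highest class. *Slc17a6* neurons had 1710 and 1864 CPM of the members, *Slc32a1* neurons 1632 and 1745 and *Nmb* neurons 1135 and 1154. Mitochondrial UMIs were 15.3% and 11.5% of all UMIs in *Nmb* and 10.3% and 10.7% in *Slc17a6* neurons. They were 11.4% and 9.84% in *Slc32a1* and 8.69% and 11.5% in *Chat* neurons. The part of these shares in the order of the sums was not tested. The glial classes spread widely, and *Pdgfra* cells came close to *Nmb* neurons in this sum, with 1011 and 1051 CPM. *Gpr17* cells had 816 and 803 CPM and *Aqp4* cells 714 and 714. *Mog* cells, at 109.02 and 107 CPM, and *C1qa* cells, at 71.4 and 131, held the least.

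AMPA receptor genes made up the larger part of these sums. *Gria1* to *Gria4* together stood at 1931 and 1576 CPM in *Chat* neurons, 1082 and 1186 in *Slc17a6* neurons and 1044 and 1078 in *Slc32a1* neurons. In *Nmb* neurons the AMPA sum was 640.4 and 705 CPM, below the sum in *Pdgfra* precursors of 778 and 790.0 and near that in *Gpr17* precursors of 736 and 696. The sum of the NMDA members was 607 and 831 CPM in *Chat*, 578 and 644 in *Slc17a6*, 543 and 627 in *Slc32a1* and 439 and 434 in *Nmb* neurons. In glia it was 220.2 and 248 CPM in *Pdgfra*, 157 and 196 in *Aqp4*, 66.5 and 85.8 in *Gpr17*, 26.2 and 51.7 in *C1qa* and 18.03 and 19.99 in *Mog* cells.

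**Figure D1:**
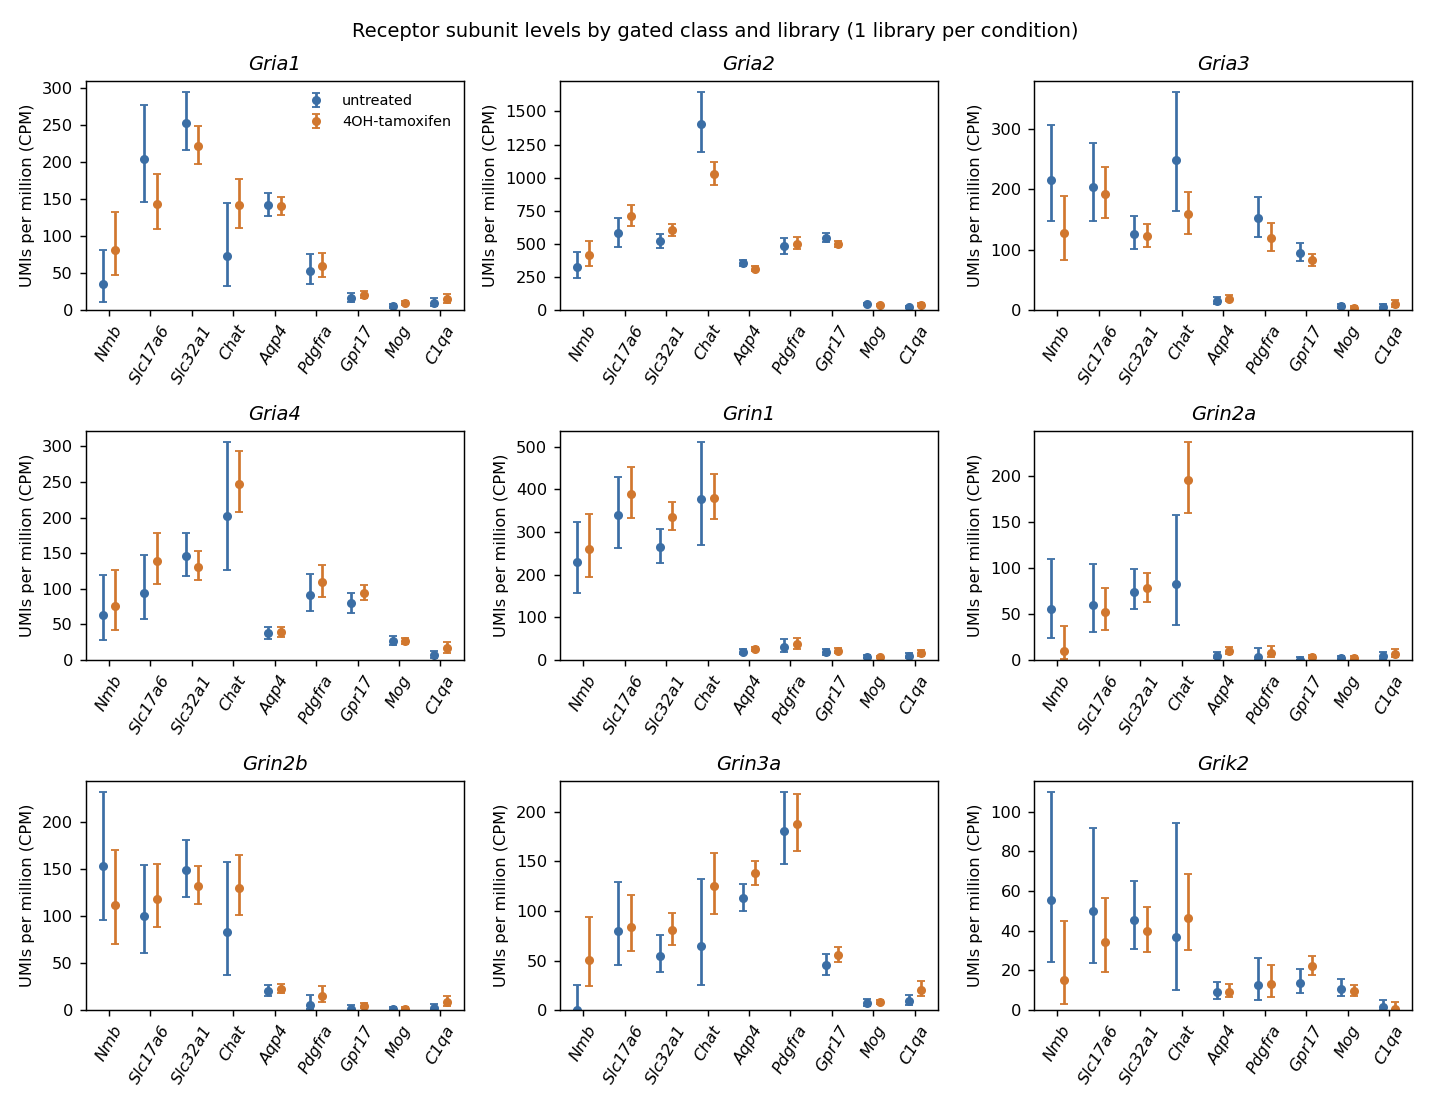
Level of each of the 9 subunit genes (CPM, linear axis with a scale of its own in each panel) in the 9 gated classes; points are class sums in the untreated (blue) and 4OH-tamoxifen (orange) libraries and bars are exact Poisson 95% intervals. *Gria2* was highest in *Chat* neurons, at 1407 and 1028 CPM, and *Grin3a* in *Pdgfra* cells, at 180.5 and 187 CPM.

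*Gria2*, which encodes the subunit that sets calcium permeability, was the most abundant member on the CPM scale in all 18 sums of class and library, and in 14 of 18 its interval lay above that of the next member. The exceptions were the *Nmb* and *C1qa* sums. *Chat* neurons had the highest *Gria2* level, 1407 (1193 to 1648) and 1028 (944 to 1118) CPM. *Slc17a6* neurons followed with 578 and 712 CPM, *Slc32a1* neurons with 518 and 602, *Gpr17* cells with 546 and 498 and *Pdgfra* cells with 482 and 502. In the untreated library the intervals of these 4 classes overlapped, while in the 4OH-tamoxifen library those of both neuronal classes lay above those of both precursor classes. *Nmb* neurons stood lower at 327 (240.4 to 435) and 419 (333 to 519.6) CPM, next to *Aqp4* cells at 353 and 311. *Mog* cells had 42.6 and 37.1 CPM and *C1qa* cells 22.6 and 37.3. In this order, neighbouring classes had intervals apart in both libraries only between *Chat* and *Slc17a6* neurons and between *Aqp4* and *Mog* cells.

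*Gria1*, the subunit best known from activity-dependent synaptic strengthening, was led by inhibitory neurons, with 254 (217 to 295) and 222 (197 to 249.6) CPM in *Slc32a1* cells. *Slc17a6* neurons had 204 and 143 CPM, and *Aqp4* cells, at 142 (127 to 159) and 141 (129 to 154), were level with *Chat* neurons of the 4OH-tamoxifen library, whose pair was 73.6 and 142. *Nmb* neurons held only 5 and 16 UMIs of *Gria1*, or 34.8 (11.3 to 81.2) and 81.7 (46.7 to 133) CPM. Among the neuronal classes they were the lowest, and their levels overlapped those of *Pdgfra* cells, at 52.3 and 59.2 CPM. *Gpr17* cells had 15.6 and 20.7 CPM, *C1qa* cells 9.19 and 14.4 and *Mog* cells 4.92 and 9.72. Only the step from *Pdgfra* to *Gpr17* cells separated the intervals of neighbours in both libraries.

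*Gria3*, an X-linked AMPA subunit, had nearly the same level in several classes. *Chat* neurons had 248 and 158 CPM, *Slc17a6* neurons 204 and 191 and *Nmb* neurons 216 and 128. *Pdgfra* cells followed at 152 and 119 CPM, close to *Slc32a1* neurons at 126 and 122, and *Gpr17* cells were at 94.6 and 82.5. The break in the order came between *Gpr17* and *Aqp4* cells, where *Gria3* was 15.2 (10.6 to 21.2) and 18.9 (14.6 to 23.99) CPM. *C1qa* cells, at 4.95 and 10.05 CPM, and *Mog* cells, at 6.15 and 3.96, were lowest.

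*Gria4*, the subunit of rapidly gating AMPA receptors, was graded over the classes. It was 202 (127 to 306) and 248 (207 to 294) CPM in *Chat* neurons, 146 and 131 in *Slc32a1* and 94.7 and 139 in *Slc17a6* neurons. *Pdgfra* cells had 92.05 and 109.6 CPM, *Gpr17* cells 79.7 and 94.8 and *Nmb* neurons 62.6 and 76.6. *Aqp4* cells, at 37.5 and 39.2 CPM, *Mog* cells, at 26.6 and 26.3, and *C1qa* cells, at 7.07 and 16.5, closed the order. No pair of neighbours had intervals apart in both libraries.

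The make-up of the AMPA pool differed between classes beyond these levels. *Gria2* gave 72.9% (66.3 to 78.7) and 65.2% (61.9 to 68.5) of AMPA UMIs in *Chat* neurons (percent, exact Clopper-Pearson intervals) and 74.2% (71.7 to 76.6) and 71.5% (69.7 to 73.3) in *Gpr17* cells. In *Slc32a1* neurons its share was 49.6% (45.8 to 53.4) and 55.9% (53.2 to 58.5), with intervals below those of *Gpr17* cells in both libraries. *Nmb* neurons had a *Gria2* share of 51.1% and 59.4% and *Slc17a6* neurons of 53.5% and 60.1%. The untreated *Nmb* share rests on 22 cells and was 36.36% after thinning to 2000 UMIs and 66.67% with at most 10% mitochondrial UMIs. The untreated *Slc17a6* share left its interval under 4 alternatives, which put it between 63.64% and 66.28%, and it rests on 20 cells. *Pdgfra* cells had a *Gria2* share of 61.9% and 63.5% and *Aqp4* cells of 64.4% and 60.98%.

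The remaining AMPA UMIs were divided differently. In *Aqp4* cells *Gria1* made up 25.99% and 27.6% of the AMPA pool, and in *Slc32a1* neurons 24.3% and 20.6%. In *Nmb* neurons *Gria1* gave 5.43% (1.79 to 12.2) and 11.6% (6.77 to 18.1) and *Gria3* 33.7% (24.2 to 44.3) and 18.1% (12.1 to 25.6), on 92 and 138 AMPA UMIs. *Gria1* gave 3.81% and 8.98% in *Chat* neurons, 2.12% and 2.97% in *Gpr17* cells and 6.73% and 7.49% in *Pdgfra* cells, where *Gria3* gave 19.5% and 15.1%. *Mog* cells had a *Gria4* share of 33.2% (26.6 to 40.2) and 34.1% (29.6 to 38.8), against 10.8% and 13.6% in *Gpr17* cells. *Aqp4* cells had the lowest *Gria3* share, 2.78% and 3.71%.

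**Figure D2:**
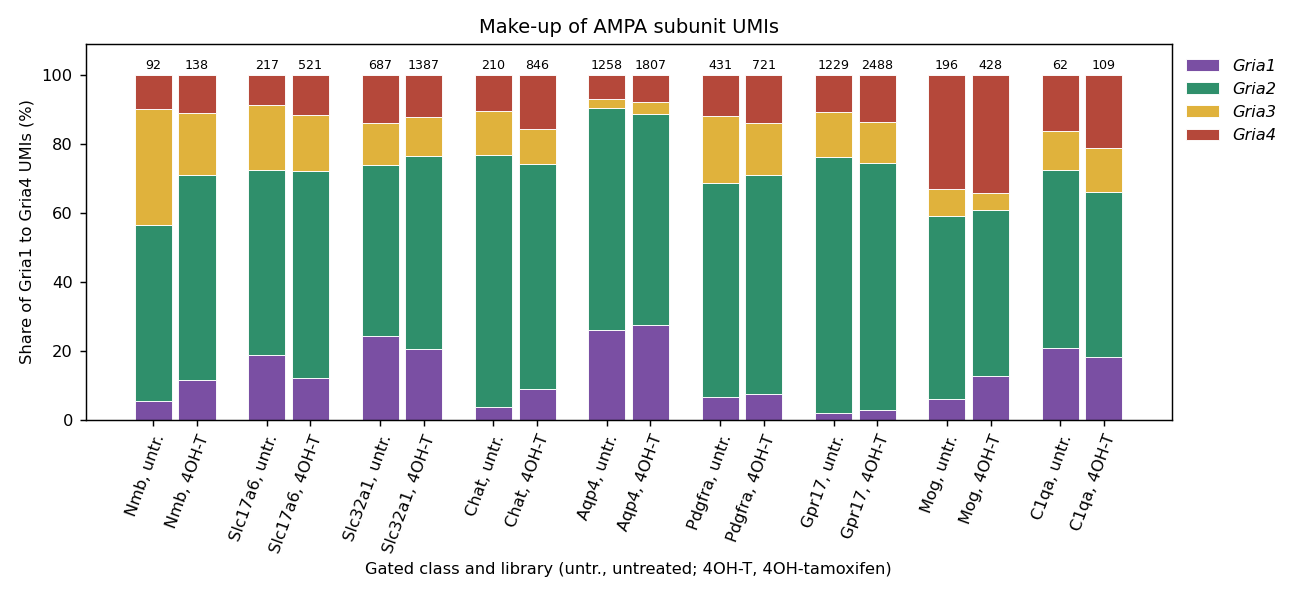
Share of each AMPA receptor gene among the UMIs of *Gria1* to *Gria4* (%, stacked bars) in each gated class and library, with the number of AMPA UMIs above each bar. The *Gria2* share ran from 47.7% in *C1qa* cells of the 4OH-tamoxifen library to 74.2% in *Gpr17* cells of the untreated library.

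*Grin1* encodes the subunit every NMDA receptor contains, and its levels divided the classes into neurons and glia. *Chat* neurons had 377 (271 to 511) and 380.0 (329.6 to 436) CPM and *Slc17a6* neurons 339 (263 to 429.8) and 389 (333 to 452). *Slc32a1* neurons had 264 and 337 CPM and *Nmb* neurons 229.7 (158 to 323) and 260.4 (194 to 342). Between *Nmb* neurons and the next class, *Pdgfra* cells at 30.7 (17.9 to 49.1) and 37.3 (25.8 to 52.1) CPM, lay the only step in the *Grin1* order with intervals apart in both libraries. *Aqp4* cells had 18.7 and 25.1 CPM, *Gpr17* cells 18.6 and 22.1, *C1qa* cells 10.6 and 15.8 and *Mog* cells 7.79 and 7.92.

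*Grin2a* and *Grin2b* encode the GluN2 subunits that, in the forebrain, are exchanged as synapses mature. *Grin2a* was highest in *Chat* neurons, at 82.7 (37.8 to 157) and 196 (160.0 to 237) CPM, with *Slc32a1* neurons at 74.5 and 77.7 and *Slc17a6* neurons at 59.8 and 52.4. In *Nmb* neurons *Grin2a* had 8 and 2 UMIs, or 55.7 (24.04 to 109.7) and 10.2 (1.24 to 36.9) CPM, and the libraries differed. Outside neurons *Grin2a* stayed at or below 10.2 CPM, and no neighbours in its order had intervals apart in both libraries. *Grin2b* was spread evenly over the neurons, with 149 and 132 CPM in *Slc32a1*, 153 and 112 in *Nmb*, 99.7 and 118 in *Slc17a6* and 82.7 and 130.4 in *Chat* neurons. *Aqp4* cells had 20.5 (15.04 to 27.2) and 22.6 (17.9 to 28.1) CPM of *Grin2b*, which was apart from *Chat* neurons in both libraries. *Pdgfra* cells had 5.41 and 15.3 CPM, *C1qa* cells 2.12 and 8.61, *Gpr17* cells 1.80 and 4.75 and *Mog* cells 1.23 and 1.80.

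The balance of these GluN2 genes was compared as a share. Its share of *Grin2a* and *Grin2b* UMIs was 73.3% (54.1 to 87.7) and 91.7% (73.00 to 98.97) in *Nmb* neurons, 62.5% and 69.3% in *Slc17a6* neurons and 66.7% (58.4 to 74.2) and 62.96% (56.9 to 68.7) in *Slc32a1* neurons. In *Chat* neurons it was 50% (26.02 to 73.98) and 40% (32.7 to 47.7), and the 4OH-tamoxifen intervals of *Chat* and *Slc32a1* neurons did not overlap. The *Chat* share was 83.33% in the untreated library after thinning to 2000 UMIs and 66.67% in the 4OH-tamoxifen library with at most 10% mitochondrial UMIs. *Aqp4* cells, with 58 and 116 UMIs of the pair, had a *Grin2b* share of 81.03% and 68.97%. The pair leaves out *Grin2c*, which had 88 and 166 UMIs in *Aqp4* cells.

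*Grin3a*, which encodes a subunit that lowers the calcium permeability of NMDA receptors, was ordered differently from *Grin1*. *Pdgfra* cells led with 180.5 (147 to 219.5) and 187 (160.3 to 218) CPM and stood apart from the next class, *Aqp4* cells at 113 (99.5 to 127) and 138 (126 to 151), in both libraries. *Chat* neurons had 64.4 and 125 CPM, *Slc17a6* neurons 79.8 and 84.2, *Slc32a1* neurons 54.7 and 80.8 and *Gpr17* cells 45.5 and 55.6. From *Aqp4* cells down to *Gpr17* cells the library ranges of neighbours overlapped. *Nmb* neurons were the lowest neuronal class: the untreated library had 0 *Grin3a* UMIs in 22 cells, where 3 UMIs would be 20.9 CPM and the exact interval reaches 25.7 CPM, and the 4OH-tamoxifen library had 10 UMIs, or 51.1 CPM (24.5 to 93.9). *C1qa* cells had 9.19 and 20.8 CPM and *Mog* cells 6.97 and 7.92.

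As a share of the UMIs of the 4 NMDA members, *Grin3a* took 71.9% (67.00 to 76.5) and 70.5% (66.9 to 73.8) in *Aqp4* cells, 81.97% (73.98 to 88.3) and 75.7% (69.5 to 81.1) in *Pdgfra* cells and 68.5% (58.97 to 76.96) and 64.8% (59.2 to 70.2) in *Gpr17* cells. In the neurons it took 13.8% and 13.1% in *Slc17a6*, 10.1% and 12.9% in *Slc32a1* and 10.6% and 15.02% in *Chat* cells. The astrocyte-like cells and both precursor classes were thus set apart from every neuronal class in the balance of these 4 members. The intervals of these shares did not overlap. The shares leave out *Grin2c*, which had 38.3 and 46.8 CPM in *Aqp4* cells, above *Grin1* at 18.7 and 25.1 CPM. *Grin1* took the largest share in neurons, for example 58.6% (49.1 to 67.7) and 60.4% (54.5 to 66.2) in *Slc17a6* cells, and 11.9% and 12.8% in *Aqp4* cells.

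**Figure D3:**
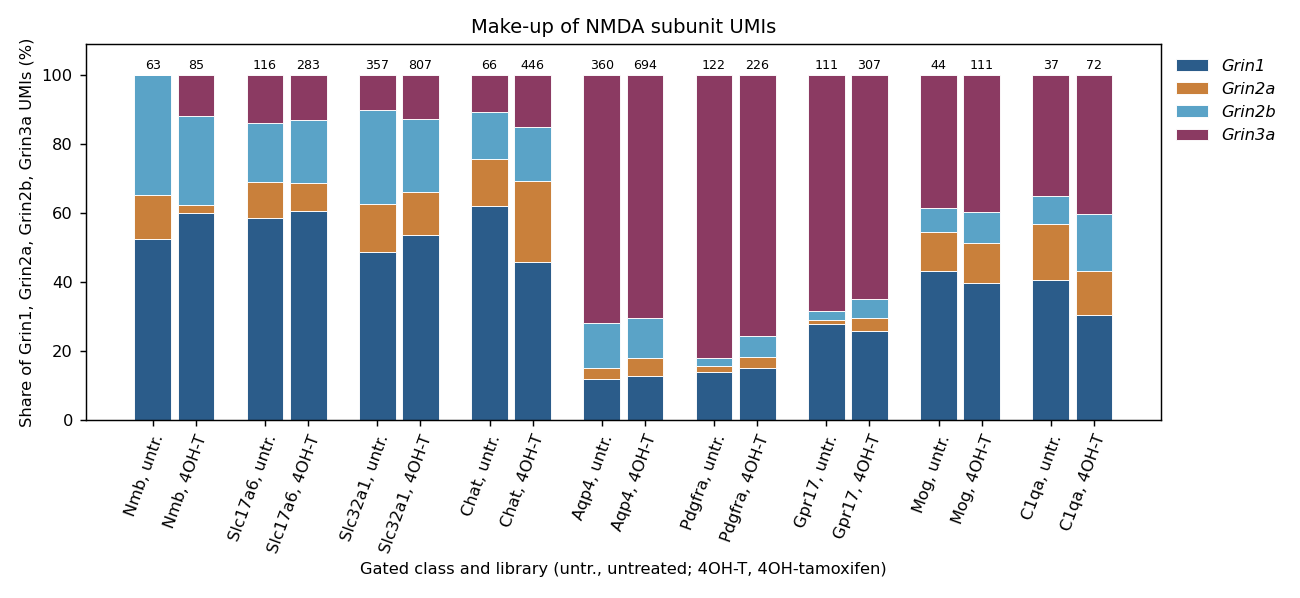
Share of *Grin1*, *Grin2a*, *Grin2b* and *Grin3a* among their summed UMIs (%, stacked bars) in each gated class and library, with the number of UMIs above each bar. Other Grin genes, such as *Grin2c*, are not in the sum. *Grin3a* (top segment) took between 64.8% and 81.97% in *Aqp4*, *Pdgfra* and *Gpr17* cells and at most 15.02% in the neuronal classes.

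*Grik2*, a pore-forming kainate receptor subunit, was the scarcest member in neurons apart from *Nmb* cells. Its level was 45.6 (30.8 to 65.1) and 39.6 (29.5 to 52.1) CPM in *Slc32a1* neurons, 49.9 and 34.1 in *Slc17a6*, 36.8 and 46.6 in *Chat* and 55.7 and 15.3 in *Nmb* neurons, the last on 8 and 3 UMIs. *Gpr17* cells had 13.8 and 22.1 CPM, *Pdgfra* cells 12.6 and 13.1, *Mog* cells 10.7 and 9.54 and *Aqp4* cells 9.15 and 9.30. *C1qa* cells, with 2 and 1 UMIs and 1.41 (0.171 to 5.11) and 0.718 (0.0182 to 3.999) CPM, were apart from *Aqp4* cells in both libraries. In *Mog* cells the *Grik2* level was above those of *Gria3*, *Grin1* and *Grin3a* in both libraries on the CPM scale.

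The share of cells with at least 1 UMI depends on depth, so it is given with the *C1qa* cells as background and after each cell was thinned to 2000 UMIs. Cells with fewer UMIs were left out of the thinned values, 86 and 762 of the *Aqp4* cells, 14 and 295 of the *Pdgfra* cells, 8 and 392 of the *Gpr17* cells and 13 and 175 of the *C1qa* cells, so these values describe the deeper cells and the libraries lost unequal parts. Median depth was 3940 and 2295 UMIs in *C1qa* cells, 7725 and 4017 in *Slc32a1* neurons, 6547 and 3658 in *Nmb* neurons, 2708 and 2030 in *Aqp4* cells and 8927 and 6252 in *Mog* cells. *Gria2* was found in 100% and 97.6% of *Chat* neurons, 77.3% and 70.4% of *Nmb* neurons and 4.71% and 5.62% of *C1qa* cells. After thinning the *Gria2* shares were 94.1% and 87.7%, 33.3% and 45.7% and 2.14% and 4.24%. Thinned *Slc32a1* neurons held *Gria2* in 64.6% and 70.8% of cells, *Pdgfra* cells in 60.3% and 68.05% and *Gpr17* cells in 64.7% and 57.7%. The *Gpr17* interval lay below that of *Slc32a1* neurons in the 4OH-tamoxifen library.

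*Grin1* was found in 57.9% and 52.1% of thinned *Slc17a6* neurons and 2.14% and 2.39% of thinned *C1qa* cells. Thinned *Aqp4* cells had *Grin1* in 2.80% and 3.88% and thinned *Mog* cells in 2.31% and 1.99%, with intervals that overlapped the background in both libraries. *Grin3a* was seen in 29.5% and 31.95% of thinned *Pdgfra* and 21.5% and 25.9% of thinned *Aqp4* cells, against 1.83% and 4.51% in *C1qa* cells. For *Grin2a* the thinned share in *Aqp4* cells, 0.884% and 1.53%, had intervals overlapping those of the *C1qa* cells, 0.612% and 1.33%. These shares rest on 6 and 13 *Aqp4* cells and 2 and 5 *C1qa* cells, so the classes were not separated. Thinned *Mog* cells had *Gria2* in 6.92% and 7.39% and *Grin3a* in 1.15% and 1.17%, with *Gria2* intervals that overlapped those of *C1qa* cells in both libraries.

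The number of members per thinned cell also differed between classes. In the untreated and 4OH-tamoxifen libraries *Chat* neurons held a mean of 2.65 and 3.30 of the 9 members per cell, *Slc17a6* neurons 2.63 and 2.62, *Slc32a1* neurons 2.34 and 2.56 and *Nmb* neurons 1.38 and 1.76. *Pdgfra* cells had a mean of 1.48 and 1.60 and *Aqp4* cells of 1.02 and 1.09. No member was found in 91.1% and 80.6% of *C1qa* cells, 82.3% and 81.01% of *Mog* cells and 5.88% and 1.23% of *Chat* neurons. With both libraries joined, of the thinned cells with an AMPA gene those without a *Gria2* UMI were 8 of 95 in *Chat*, 62 of 311 in *Slc32a1* and 20 of 48 in *Nmb* neurons. At 2000 UMIs a missing *Gria2* UMI does not show that a cell lacks *Gria2*.

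Class pairs were compared within each library, and a gene counted as past 2-fold when its CPM ratio passed 2 the same way in both, given at least 20 UMIs over the pair in each library. With 1 library per condition no test was made, and these counts describe the libraries. The comparison of *Nmb* with the other *Slc17a6* neurons sets the chemosensitive cells beside their glutamatergic neighbours. Of 7 members with enough UMIs, 0 were past 2-fold in both libraries, against 4.57% of all 3395 genes compared. The median log2 ratio was -0.56 and -0.77 over the members and -0.14 and -0.04 over all genes. Mitochondrial UMIs made up 15.3% and 11.5% of all UMIs in *Nmb* and 10.3% and 10.7% in *Slc17a6* neurons. Their part in these ratios was not tested. The *Gria2* ratio was 0.566 (0.394 to 0.800) and 0.588 (0.455 to 0.752) and the *Grin1* ratio 0.678 (0.433 to 1.04) and 0.669 (0.479 to 0.919). For *Gria1* the ratio was 0.170 (0.0525 to 0.431) and 0.570 (0.307 to 0.998), past 2-fold in the untreated library alone. *Grin2a* had ratios of 0.931 (0.330 to 2.48) and 0.195 (0.0223 to 0.789), past 2-fold in the 4OH-tamoxifen library alone. Of 4 AMPA auxiliary genes and 3 scaffold genes compared, 0 passed.

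Inhibitory neurons were set beside glutamatergic neurons next. Between *Slc32a1* and *Slc17a6* neurons 0 of 9 members passed, where 2.86% of 6567 genes did. The median log2 ratio of the members was -0.13 and -0.06, beside -0.03 and -0.01 over all genes. The *Gria1* ratio was 1.24 (0.878 to 1.79) and 1.55 (1.18 to 2.07) and the *Gria3* ratio 0.617 (0.420 to 0.920) and 0.638 (0.487 to 0.842), the latter with intervals below 1 in both libraries. In the lists, *Cacng5*, an AMPA auxiliary gene, was 19.8 and 27.2 CPM in *Slc32a1* against 69.8 and 81.9 in *Slc17a6* neurons. *Adarb2*, an RNA-binding relative of the editing enzymes without known editing activity, was 50.1 and 35.8 CPM in *Slc32a1* neurons and 4.55 CPM in *Slc17a6* neurons of the 4OH-tamoxifen library. The untreated *Slc17a6* neurons had 0 UMIs of *Adarb2*, and with 3 UMIs in place of 0 the ratio is 3.35 (exact lower limit 2.58).

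*Chat* neurons had the highest AMPA sum, yet 0 of 9 members passed 2-fold in both libraries against *Slc32a1* neurons, a comparison in which 10.1% of 6329 genes did. *Gria2* came closest, with ratios of 2.71 (2.23 to 3.29) and 1.71 (1.53 to 1.91). For *Grin2a* the ratio was 1.11 (0.480 to 2.29) and 2.52 (1.89 to 3.34), and for *Gria1* 0.290 (0.123 to 0.584) and 0.637 (0.488 to 0.823), each past 2-fold in a single library. The count was 2 with at most 10% mitochondrial UMIs and 1 after thinning to 2000 UMIs. The members' median log2 ratio was 0.23 and 0.38 and that of all genes -0.14 and -0.07. Partners of the receptors did pass. Of 8 AMPA auxiliary genes compared, 3 were lower and 0 higher in *Chat* neurons. *Gsg1l* had 5.59 CPM in *Chat* neurons of the 4OH-tamoxifen library and 0 UMIs in the untreated library, against 97.3 and 76.95 in *Slc32a1* neurons, and with 3 UMIs in place of 0 the ratio is 0.284 (exact upper limit 0.359). *Cacng4* was 9.19 and 13.04 against 28.9 and 48.2 CPM and *Cnih2* 36.8 and 33.5 against 117 and 87.8 CPM.

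The metabotropic receptor gene *Grm5*, which couples to phospholipase C, was 18.4 and 11.2 CPM in *Chat* and 231 and 298 CPM in *Slc32a1* neurons, ratios of 0.0796 and 0.0374. The kainate receptor gene *Grik3* was 9.19 and 7.45 against 60.8 and 75.4 CPM, whereas *Grid1* was higher in *Chat* neurons, at 45.97 and 61.5 against 22.8 and 30.3 CPM. Of 7 scaffold genes, *Dlg3* alone passed, at 18.4 and 18.6 against 41.03 and 38.9 CPM. Over all 6329 genes compared, 5.01% were higher and 5.14% lower in *Chat* neurons. The 3 editing genes did not pass, with median log2 ratios of -0.86 and -1.02.

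Against *Slc17a6* neurons, 0 of 8 members passed in *Chat* neurons, with 9.32% of 3306 genes past 2-fold. *Gria2* ratios were 2.43 (1.90 to 3.12) and 1.44 (1.25 to 1.66), *Gria4* ratios 2.14 (1.10 to 4.17) and 1.78 (1.31 to 2.46) and *Grin2a* ratios 1.38 (0.515 to 3.58) and 3.74 (2.36 to 6.15). Each was higher in *Chat* neurons in both libraries but past 2-fold in only 1. *Gria1* ratios were 0.360 (0.146 to 0.777) and 0.987 (0.698 to 1.40), past 2-fold lower in the untreated library alone, and with at most 10% mitochondrial UMIs 1 member passed. The median log2 ratio of the members was 0.22 and 0.33, beside -0.26 and -0.11 over all genes. *Cnih2*, which codes for a cornichon protein that slows AMPA receptor closing, was the list gene that passed, at 36.8 and 33.5 CPM against 174 and 105.

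Oligodendrocyte precursors were then compared with astrocyte-like cells. Between *Pdgfra* and *Aqp4* cells 3 of 8 members were past 2-fold in both libraries, a share to be read beside 20.8% of 10294 genes. *Gria3* was 152 and 119 CPM in *Pdgfra* and 15.2 and 18.9 CPM in *Aqp4* cells, ratios of 9.94 (6.63 to 15.2) and 6.32 (4.62 to 8.70). *Gria4* had ratios of 2.46 (1.70 to 3.51) and 2.80 (2.14 to 3.64). *Gria1* went the other way, with ratios of 0.367 (0.242 to 0.538) and 0.421 (0.312 to 0.558). With a ratio of 3 the count was 1. *Gria2* had ratios of 1.37 and 1.62 and *Grin3a* of 1.60 and 1.36. The median log2 ratio was 0.57 and 0.53 for the members and 0.26 and 0.19 for all genes.

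Auxiliary genes were also higher in *Pdgfra* cells. Of 7 AMPA auxiliary genes compared, 4 were higher in *Pdgfra* cells and 0 lower. Over all 10294 genes compared, 10.5% were higher and 10.4% lower. *Cacng4*, a transmembrane AMPA receptor regulatory protein gene, was 522 and 471 CPM in *Pdgfra* and 48.4 and 66.5 CPM in *Aqp4* cells. *Shisa7* was 57.8 and 59.2 against 2.61 and 4.23 CPM, *Cnih2* 77.6 and 81.1 against 15.7 and 22.3 and *Cacng7* 75.8 and 87.7 against 31.8 and 38.6. *Neto1*, a kainate receptor auxiliary gene, was 27.1 and 31.8 against 2.61 and 4.23 CPM, and the postsynaptic scaffold gene *Homer2* 75.8 and 74.5 against 13.5 and 27.1. Other ionotropic genes split: *Grik3* and *Grid1* were higher in *Pdgfra* cells, with ratios of 7.25 and 7.77 and of 2.54 and 2.97. *Grin2c* was 1.80 and 4.38 CPM in *Pdgfra* and 38.3 and 46.8 CPM in *Aqp4* cells, and *Grm3*, a metabotropic receptor gene of astrocytes, was 1.80 and 4.38 against 28.8 and 19.5 CPM.

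The oligodendrocyte lineage was compared class by class. From *Pdgfra* to *Gpr17* cells 2 of 7 members were past 2-fold, both lower in *Gpr17* cells, with 11.7% of 9258 genes past 2-fold in either direction. *Gria1* was 15.6 and 20.7 CPM in *Gpr17* and 52.3 and 59.2 CPM in *Pdgfra* cells, ratios of 0.298 (0.168 to 0.523) and 0.350 (0.243 to 0.506). *Grin3a* had ratios of 0.252 (0.185 to 0.343) and 0.297 (0.241 to 0.366). *Gria2* was level between these classes, with ratios of 1.13 (0.988 to 1.30) and 0.992 (0.894 to 1.10), and *Gria4* close to level at 0.865 and 0.865. The members' median log2 ratio was -0.68 and -0.53, beside -0.06 and -0.03 over all genes. In the lists, the AMPA auxiliary genes *Cacng4*, at 178 and 166 against 522 and 471 CPM, *Shisa7*, at 10.8 and 13.98 against 57.8 and 59.2, and *Cnih2*, at 33.5 and 32.1 against 77.6 and 81.1, were lower in *Gpr17* cells. With a ratio of 3 the count of members was 1. *Neto1* had ratios of 0.288 and 0.308, the scaffold gene *Shank1* of 0.387 and 0.499 and *Grm5* of 0.242 and 0.324.

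From *Gpr17* to *Mog* cells most members were lower. Of 7 members compared, 6 were past 2-fold lower in *Mog* cells, against 24.9% of 10160 genes in either direction. *Gria2* was 42.6 and 37.1 CPM in *Mog* and 546 and 498 CPM in *Gpr17* cells, ratios of 0.0780 (0.0631 to 0.0957) and 0.0745 (0.0642 to 0.0862). *Gria3* had the lowest ratios, 0.0650 (0.0355 to 0.110) and 0.0480 (0.0296 to 0.0741). Among the NMDA members *Grin3a* had ratios of 0.153 (0.0848 to 0.261) and 0.142 (0.100 to 0.198). *Gria1*, *Gria4* and *Grin1* had ratios of 0.316 and 0.470, of 0.334 and 0.277 and of 0.419 and 0.359. *Grik2* did not pass, at 0.773 and 0.432, and with a ratio of 3 the count was 3. All genes leaned the same way, with a median log2 ratio of -0.42 and -0.46, and the members' median was -1.66 and -1.85.

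Other ionotropic genes were lower too, while the metabotropic genes split. All 5 other ionotropic genes compared were lower in *Mog* cells, among them *Grid1* at 2.05 and 2.16 against 48.5 and 50.04 CPM, *Grik3* at 3.28 and 3.06 against 35.9 and 41.1, *Grik5* at 17.6 and 11.2 against 69.5 and 68.2 and *Grik4* at 4.92 and 3.60 against 15.6 and 17.6. Of 6 AMPA auxiliary genes 3 were lower, with ratios of 0.0300 and 0.0671 for *Cacng4*, 0.0306 and 0.123 for *Shisa9* and 0.380 and 0.206 for *Shisa7*. The kainate auxiliary gene *Neto2* had ratios of 0.420 and 0.332. Of 9 scaffold genes 3 were lower, *Homer2* with ratios of 0.0274 and 0.0432, *Grip1* with 0.241 and 0.332 and *Shank1* with 0.349 and 0.337. *Grm4* and *Dlg2* were higher in *Mog* cells. *Grm4*, a metabotropic receptor gene, was 67.6 and 40.3 CPM in *Mog* and 1.80 and 2.80 CPM in *Gpr17* cells, and the scaffold gene *Dlg2* was 32.8 and 28.5 against 7.79 and 10.3 CPM. *Grm5* was lower, with ratios of 0.0965 and 0.137.

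Precursors were also set beside inhibitory neurons, the largest neuronal class. Between *Pdgfra* cells and *Slc32a1* neurons 6 of 9 members passed, where 32.1% of 8159 genes did. *Grin3a* was higher in *Pdgfra* cells, at 180.5 and 187 against 54.7 and 80.8 CPM and ratios of 3.30 (2.23 to 4.97) and 2.32 (1.81 to 2.99). The other 5 were lower. *Grin2b* had ratios of 0.0364 (0.00737 to 0.109) and 0.116 (0.0621 to 0.2002), *Grin2a* of 0.0485 (0.00571 to 0.185) and 0.0987 (0.0387 to 0.211) and *Grin1* of 0.116 (0.0661 to 0.191) and 0.111 (0.0757 to 0.157). *Gria1* had ratios of 0.206 and 0.266 and *Grik2* of 0.277 and 0.332. *Gria2*, *Gria3* and *Gria4* did not pass, and the *Gria2* ratio was 0.930 (0.789 to 1.09) and 0.833 (0.741 to 0.936). The median log2 ratio was -1.85 and -1.59 over the members and -0.01 and -0.14 over all genes.

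Of 8 AMPA auxiliary genes compared, 1 was higher and 3 were lower in *Pdgfra* cells. Over all 8159 genes compared, 13.8% were higher and 18.3% lower. *Cacng4* was 522 and 471 CPM against 28.9 and 48.2 in *Slc32a1* neurons. *Cacng2*, the stargazin gene, was 18.05 and 32.9 against 126 and 162 CPM and *Gsg1l* 9.02 and 5.48 against 97.3 and 76.95 CPM. *Cacng3* had 0 UMIs in untreated *Pdgfra* cells, where 3 UMIs would give a ratio of 0.119 (exact upper limit 0.155), and 2.19 CPM in the 4OH-tamoxifen library, against 45.6 and 51.3 in *Slc32a1* neurons. Of 9 scaffold genes 5 were lower and 0 higher. *Grip2* had ratios of 0.0475 and 0.0723, *Dlg4*, which encodes PSD-95, of 0.157 and 0.217, *Dlg2* of 0.210 and 0.342 and *Dlg3* of 0.0880 and 0.395. All 3 editing genes were lower: *Adar* at 10.8 and 19.7 against 106 and 120.5 CPM, *Adarb1*, which edits the *Gria2* transcript at the site that sets calcium entry, at 16.2 and 26.3 against 72.9 and 109.6, and *Adarb2* with ratios of 0.216 and 0.245. Whether *Gria2* transcripts were edited was not measured. *Grm7* was 9.02 and 4.38 against 50.1 and 47.4 CPM and *Grm4* 7.22 and 5.48 against 54.7 and 46.6 CPM. The kainate gene *Grik3* had ratios of 0.416 and 0.494.

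Astrocyte-like cells were set beside microglia, which served as the background class. Of 8 members compared, 6 were past 2-fold higher in *Aqp4* cells, with 35.2% of 10697 genes past 2-fold in either direction. *Gria1* had ratios of 15.5 (8.94 to 29.4) and 9.80 (6.28 to 16.2) and *Gria2* of 15.6 (10.96 to 22.96) and 8.32 (6.30 to 11.2). *Grin3a* had ratios of 12.3 (7.05 to 23.4) and 6.62 (4.55 to 9.996) and *Grik2* of 6.47 and 12.96, on 2 and 1 UMIs in *C1qa* cells. *Gria4*, at 5.30 and 2.37, and *Grin2b*, at 9.66 and 2.62, also passed. *Grin1* was not past 2-fold, with ratios of 1.77 (0.962 to 3.42) and 1.59 (0.988 to 2.66), and *Gria3* passed in the untreated library only, at 3.08 and 1.88. The members' median log2 ratio was 2.98 and 2.06 and that of all genes 0.40 and 0.35.

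All 6 other ionotropic genes compared were higher in *Aqp4* cells. Over all 10697 genes compared, 23.8% were higher and 11.5% lower. *Grik5* was 80.2 and 84.6 CPM against 9.19 and 8.61 in *C1qa* cells, *Grik4* 16.99 and 18.3 against 2.12 and 3.59 and *Grin3b* 9.58 and 5.92 against 1.41 and 0.718. The lists of partners leaned the same way. Among 5 AMPA auxiliary genes 3 were higher, *Shisa9* with 72.3 and 55.8 against 1.41 and 5.02 CPM, *Cacng7* with ratios of 4.999 and 2.69 and *Cacng4* with 4.56 and 2.32. *Neto2* had ratios of 4.93 and 4.71. Of 9 scaffold genes 7 were higher, with ratios of 3.92 and 2.74 for *Dlg4*, 3.18 and 2.69 for *Homer2* and 2.96 and 2.58 for *Dlg3*, and *Grip1* at 15.2 and 25.1 CPM against 0 UMIs in untreated *C1qa* cells and 6.46 CPM in the others. *Grm5* was 171 and 150 against 7.07 and 17.9 CPM, *Grm3* 28.8 and 19.5 against 0.707 and 3.59 and *Grm7* 9.15 and 11.3 CPM against 0 UMIs in untreated and 2.15 CPM in 4OH-tamoxifen *C1qa* cells.

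Within the inhibitory neurons, cells with at least 2 *Sst* UMIs (36 and 94 cells) were compared with those without (46 and 203). Of 9 members 0 were past 2-fold in both libraries, where 1.33% of 5560 genes were, and 0 genes of the pathway lists passed. *Gria1* was 355 (289 to 431) and 258 (213 to 309.5) CPM with *Sst* and 175 (135 to 224) and 203 (174 to 236) CPM without. *Grin1* was 331 and 377 CPM with *Sst* and 213 and 315 without, a ratio of 1.55 (1.14 to 2.12) and 1.19 (0.979 to 1.45). *Grin3a* leaned the other way, with ratios of 0.430 (0.178 to 0.942) and 0.838 (0.534 to 1.29). The members' median log2 ratio was 0.13 and 0.09, beside -0.01 and 0.01 over all genes.

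The smaller subtypes are given as levels only. *Slc32a1* neurons with at least 2 *Cck* UMIs (14 and 34 cells) had 18.4 (2.22 to 66.3) and 75.4 (36.2 to 139) CPM of *Gria1*, and those without had 300.5 (256 to 350.0) and 239 (212 to 269) CPM. Their *Grin1* level was 91.8 (44.04 to 169) and 189 (122 to 278) CPM, against 299 (255 to 348) and 354 (320.1 to 389.6) without *Cck*. Both were therefore lower in *Cck* cells, with intervals apart in both libraries, and *Grin2a* had 27.6 and 7.54 CPM with and 83.8 and 85.8 CPM without *Cck*. *Gria3* was 248 and 151 CPM with and 102 and 119 without *Cck*, and *Gria2* was level at 533 and 603 and 515 and 602. Cells with *Ndnf* (5 and 18) had 73.7 and 166 CPM of *Gria1* and 18.4 and 27.7 CPM of *Grin2a*, against 270.0 and 227 and 79.5 and 82.3 without. *Pvalb* cells (2 and 11) were few, and their *Gria1* levels of 757 (414 to 1270) and 36.8 (4.46 to 133) CPM differed between the libraries. Of the *Slc32a1* neurons, 174 passed none of the 4 sub-gates and 9 passed 2.

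*Nmb* neurons with a *Gal* UMI (15 and 24 cells) had 239.6 (150.2 to 363) and 215 (131 to 332) CPM of *Gria3*, and those without (7 and 30) had 174 (79.4 to 329.5) and 48.6 (15.8 to 114). *Grin1* was 163 and 226 CPM with and 347 (206 to 549) and 292 (197 to 417) CPM without *Gal*. *Gria2* was 294 and 408 CPM with and 386 and 428 without. For these 3 members the intervals of both groups overlapped, except for *Gria3* in the 4OH-tamoxifen library.

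The libraries were then compared within each class, by the ratio of 4OH-tamoxifen to untreated CPM. Of 81 pairs of member and class, 69 had enough UMIs, 7 of these were past 2-fold and 13 had intervals that left out 1. All 7 were higher in the 4OH-tamoxifen library. Genes past 2-fold leaned that way in 7 of the 9 classes, with 5.57% higher and 2.71% lower in *Nmb* neurons, 12.3% and 7.82% in *Chat* neurons and 6.43% and 2.26% in *C1qa* cells. In *Slc17a6* neurons 0 of 9 members were past 2-fold (11.6% of 5746 genes were) and in *Slc32a1* neurons 0 of 9 (5.62% of 9148). *Pdgfra* cells had 0 of 6 (6.4% of 8441) and *Mog* cells 0 of 7 (6.15% of 10828).

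In *Nmb* neurons 1 of 6 members passed (8.29% of 3283 genes): *Gria1*, at 34.8 and 81.7 CPM, had a ratio of 2.35 (0.822 to 8.19). In *Chat* neurons 1 of 9 passed (20.1% of 5931), *Grin2a* at 82.7 and 196 CPM and a ratio of 2.36 (1.20 to 5.31). In *Aqp4* cells 1 of 9 passed (6.5% of 11679), again *Grin2a*, at 4.79 and 10.2 CPM and a ratio of 2.12 (1.05 to 4.61). Its share of thinned *Aqp4* cells was not separated above from that of *C1qa* cells. In *Gpr17* cells 1 of 8 passed (5.46% of 10916), *Grin2b* on 3 and 17 UMIs with a ratio of 2.64 (0.765 to 14.1). In the untreated library *Grin2a* had 9 UMIs in *Chat* neurons and 11 in *Aqp4* cells, and 2 of these 4 intervals included 1. The counts depended on the settings: in *Nmb* neurons the count was 4 with a minimum of 10 UMIs, among them *Grin2a* with a ratio of 0.183 (0.0190 to 0.919) and *Grik2* with 0.275 (0.0470 to 1.15), both lower, and 0 with at most 10% mitochondrial UMIs, and in *Chat* neurons 4 with 1 UMI more for every marker, 3 with the mean of each cell's CPM, and 0 with at most 10% mitochondrial UMIs or with a ratio of 3. In *Aqp4* and *Gpr17* cells it was 0 after thinning, and in *Mog* cells 3 with classes taken from nearest neighbours.

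*C1qa* cells had 3 of 6 members past 2-fold (8.69% of 9078 genes). *Gria4* was 7.07 and 16.5 CPM with a ratio of 2.34 (1.07 to 5.50), *Grin3a* 9.19 and 20.8 CPM with 2.27 (1.14 to 4.75) and *Gria3* 4.95 and 10.05 CPM with 2.03 (0.767 to 5.95). The summed level of 8 neuronal genes in the same *C1qa* cells was 947 and 1467 CPM, so it too was higher in the 4OH-tamoxifen library. Its part in these ratios was not tested. With 5 added to each CPM the count in *C1qa* cells was 0.

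Other ratios are given with their intervals. *Gria2* had a ratio of 0.881 (0.803 to 0.965) in *Aqp4*, 0.911 (0.841 to 0.988) in *Gpr17* and 1.04 (0.894 to 1.22) in *Pdgfra* cells. In *Slc32a1* neurons *Gria2* had a ratio of 1.16 (1.02 to 1.32), *Grin1* of 1.27 (1.07 to 1.53) and *Grin3a* of 1.48 (1.003 to 2.22). *Chat* neurons had a *Gria2* ratio of 0.731 (0.610 to 0.880). *Grin3a* in *Aqp4* cells had 1.22 (1.05 to 1.43), *Gria1* in *Mog* cells 1.98 (1.04 to 4.06) and *Gria2* in *C1qa* cells 1.65 (1.04 to 2.65). The median log2 ratio over the members was 0.87 in *C1qa* cells and 0.14 in *Aqp4* cells, beside 0.02 and -0.01 over all genes.

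RNA of other cells and of stress was measured in every class. The 8 neuronal genes, 4 of which are part of the neuron gate, summed to 20685 and 21914 CPM in *Slc17a6* and 56101 and 40125 CPM in *Chat* neurons, where *Meg3* was the most abundant. In glia they summed to 1816 and 2145 CPM in *Aqp4*, 1865 and 2274 in *Pdgfra*, 794 and 1386 in *Gpr17* and 784 and 652 in *Mog* cells, with *Meg3* or *Nefl* leading and all 8 detected.

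Stress genes (8, led by *Jun* or *Junb* in glia) were at 1419 and 550.0 CPM in *Pdgfra*, 504 and 235 in *Gpr17* and 4704 and 2491 in *C1qa* cells and were higher in the untreated library of each. In neurons they were 115 and 76.95 CPM in *Slc32a1*, 414 and 237 in *Chat* and 306 and 352 in *Nmb* cells, with *Fos* leading in *Nmb* and *Jun* in the other neurons, and *Hspa1b* had 0 UMIs in all 4 neuronal classes. Of 4 vascular genes all were found in glia, summing to 820.3 and 341 CPM in *Aqp4* and 504 and 96.2 in *Mog* cells, with *Cldn5* the most abundant in both. In *Nmb* neurons they came to 34.8 and 51.1 CPM. Fibroblast genes (4, led by *Col1a2*) were 266 and 153 CPM in *Aqp4* cells and 9.02 and 14.2 in *Pdgfra* cells, where cells with at least 2 UMIs of *Col1a1*, *Col1a2* and *Dcn* had been left out and *Lum* had 0 UMIs. No gate removed vascular genes. The part of these lists in the members' levels was not tested.

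Cells that passed no gate, 1314 and 3280, are given for completeness. Their *Gria2* was 228 and 294 CPM, *Gria4* 48.8 and 69.3, *Grin3a* 38.8 and 56.7 and *Grin1* 32 and 59.4. *Gria1* was 31.3 and 39.98 CPM there and *Gria3* 50.5 and 52.5. These cells mix all classes and are not described further.

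Over the 18 sums of class and library the members were compared by Pearson's r of log2 levels (CPM with 10 added). The points share libraries and depth and are no replicates, so r is a description. *Grin1* was closest to *Grin2b* (r = 0.959) and to *Grin2a* (0.903), and *Gria2* to *Gria4* (0.924) and *Gria3* (0.878). *Grin3a* stood apart from the other NMDA genes, with r = 0.248 to *Grin1*, 0.188 to *Grin2a* and 0.193 to *Grin2b*. Its highest value among members was with *Gria2* (0.682). *Gria1* was closest to *Grin2b* (0.780) and *Grik2* to *Grin1* (0.855).

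The same measure picked, out of 7519 genes with a mean of at least 20 CPM, the 3 most like each member. For *Gria2* these were *Map2* (r = 0.982), a microtubule protein gene of dendrites, *Zfp512b* (0.960) and *Fndc4* (0.959). For *Gria1* they were the GABA-B receptor gene *Gabbr2* (0.958), *Pfkm* (0.949) and *Fat3* (0.945). For *Gria3* they were *B230334C09Rik* (0.962), *Fam69b* (0.960) and *Lingo1* (0.958). *Gria4* was most like *Slitrk5* (0.970), *Fndc4* (0.948) and *Nlgn2* (0.939), which encodes a synaptic adhesion protein of inhibitory synapses. *Fndc4* was thus among the nearest genes of both *Gria2* and *Gria4*.

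Among the NMDA genes, *Grin1* was most like the neuronal genes *L1cam* (0.992), *Elavl2* (0.991) and *Sptbn4* (0.990), and *Elavl2* is part of the neuron gate. *Grin2b* was most like *Atp1b1* (0.991), *Nptn* (0.984) and *Sdha* (0.984). *Grin2a* was most like *AI593442* (0.979), the calcium channel gene *Cacna1g* (0.957) and *Cabp7* (0.955). The nearest genes of *Grin3a* were less close, *Smek1* (0.913), *Gpc6* (0.900) and *Hnrnpa0* (0.898). Those of *Grik2* were *Rab6a* (0.949), *Habp4* (0.946) and *Fbxo9* (0.939).

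The 9 genes lie on 9 different chromosomes of GRCm38 (GENCODE M21). *Gria1* spans positions 57011387 to 57330244 of chromosome 11, and it and *Gria3*, at 41400854 to 41678601 of chromosome X, lie on the plus strand. The other 7 lie on the minus strand. *Grin1*, at 25291181 to 25319187 of chromosome 2, is by far the shortest gene, with 28007 bases, and *Grik2*, at 49094833 to 49788766 of chromosome 10, the longest, with 693934. *Gria2* covers 80681450 to 80802835 of chromosome 3, *Gria4* 4417896 to 4796234 of chromosome 9 and *Grin2a* 9567898 to 9995560 of chromosome 16. *Grin2b* covers 135713233 to 136173511 of chromosome 6 and *Grin3a* 49661611 to 49845744 of chromosome 4.

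Promoter sequences of RefSeq (GRCm38.p6) were matched for 4 of 9 members, *Gria2*, *Gria4*, *Grin1* and *Grik2*. The 250 bases before the start are printed for *Grin1*, a gene with higher levels in every neuronal class than in every glial class, and for *Gria2* and *Gria4*, the AMPA genes whose levels ran most closely together. Motifs, chosen after the sequences were seen, were searched on both strands: the E-box CACGTG, which 6.02% of all 32851 promoter windows of this length hold, the GC box GGGCGG (32.7%), the cyclic AMP response element TGACGTCA (1.55%) and CAGCACC, the left part of the neuron-restrictive silencer element (5.73%). The *Grin1* window holds the E-box at 2 places, shown in capitals, and 0 of the other motifs. The windows of *Gria2*, *Gria4* and *Grik2* hold 0 matches. All windows are on the minus strand: chr2:25319188-25319437 for *Grin1*, chr3:80802836-80803085 for *Gria2* and chr9:4796235-4796484 for *Gria4*, written 5′ to 3′.
Grin1: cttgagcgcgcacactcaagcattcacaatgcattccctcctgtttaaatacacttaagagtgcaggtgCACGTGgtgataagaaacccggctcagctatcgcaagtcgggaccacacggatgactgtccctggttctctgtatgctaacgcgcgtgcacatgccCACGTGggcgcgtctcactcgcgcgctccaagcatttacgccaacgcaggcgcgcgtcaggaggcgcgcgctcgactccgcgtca
Gria2: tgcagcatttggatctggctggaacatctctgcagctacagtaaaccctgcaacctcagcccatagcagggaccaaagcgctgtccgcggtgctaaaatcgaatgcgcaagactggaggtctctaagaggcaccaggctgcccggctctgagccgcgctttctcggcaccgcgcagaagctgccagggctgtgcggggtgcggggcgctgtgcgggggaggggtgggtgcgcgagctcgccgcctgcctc
Gria4: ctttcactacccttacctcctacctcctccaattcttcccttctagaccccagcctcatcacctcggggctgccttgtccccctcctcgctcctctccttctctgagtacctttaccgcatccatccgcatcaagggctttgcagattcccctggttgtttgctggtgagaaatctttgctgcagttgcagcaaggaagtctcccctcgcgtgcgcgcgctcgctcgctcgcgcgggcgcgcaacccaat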

How the data were processed

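The authors converted reads with bcl2fastq 2.18.0.12 and aligned and counted them with Cell Ranger 2.2.0 on mm10, and the deposited values are raw UMI counts per gene and barcode. Doublets called by Scrublet in scanpy 1.11.5 (6 barcodes, 0.159%, and 544, 5.31%) were removed, as were cells with under 800 genes, over 50 hemoglobin UMIs or over 20% mitochondrial UMIs. *Nmb* and glial gates needed 2 UMIs of the marker and *Slc17a6*, *Slc32a1* and *Chat* gates 1. All gates needed under 2 UMIs of every other glial marker and, outside the *Nmb* gate, under 2 of *Nmb*. They needed 0 UMIs of *Slc17a6*, *Slc32a1* and *Chat* apart from the gate's own marker, except that *Nmb* cells could hold *Slc17a6*. UMIs were summed per class and library and scaled to 1000000, with exact Poisson, Clopper-Pearson and conditional intervals (Python 3.11.15, scipy 1.17.1, numpy 2.4.6, scikit-learn 1.9.0). Counts of 0 were set to 3 for calls past 2-fold. A set of 14 alternatives was run. The members and lists were chosen with earlier results of these data known. Genes named are the members, list genes past 2-fold in both libraries (at most 4 per list and comparison, by the smaller fold), the 3 genes most like each member, and the most abundant gene of each quality list. Markers, genes at 0 UMIs and the sub-gate values were named after values were seen. Calls were tried on simulated data for *Slc32a1* against *Slc17a6* neurons only, with 200 of 6572 genes changed 4-fold. Of the changed genes 95.5% were called, and of the unchanged genes 0.141%. Changes nearer to 2-fold and the comparisons with fewer cells were not simulated.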

Additional observations from a re-analysis of the deposited data

Results flagged for a closer look

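Only pairs of member and class comparison with at least 20 UMIs over both classes in each library were counted here. In 15 of these, the ratio of class levels was above 1 in 1 library and below 1 in the other. With 1 library each the differences were not tested, and in 0 of the 15 did both intervals leave out 1. Ratios are untreated, then 4OH-tamoxifen. Between *Chat* and *Slc17a6* neurons the ratio was 1.214 and 0.828 for *Gria3*, 1.112 and 0.9761 for *Grin1*, 0.8299 and 1.101 for *Grin2b*, and 0.8068 and 1.482 for *Grin3a*. Between *Nmb* and *Slc17a6* neurons it was 1.056 and 0.6675 for *Gria3* and 1.536 and 0.9489 for *Grin2b*.

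Inhibitory neurons against *Slc17a6* neurons had a ratio of 1.54 and 0.946 for *Gria4*, and of 0.9144 and 1.161 for *Grik2*. *Chat* against *Slc32a1* neurons gave 0.8067 and 1.175 for *Grik2*. With and without *Sst*, the ratio was 1.1 and 0.8201 for *Gria2*, 0.7688 and 1.074 for *Gria3*, 0.9672 and 1.542 for *Grin2a*, and 1.095 and 0.8536 for *Grin2b*. In the oligodendrocyte lineage, *Gria2* between *Gpr17* and *Pdgfra* cells had 1.134 and 0.9916. *Gria3* between *Pdgfra* cells and *Slc32a1* neurons had 1.202 and 0.9787.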

How the results depend on the processing

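Counts were run under 14 alternatives, ratios under 12, and levels and shares under 11. Of 266 counts of members past 2-fold, 226 stayed within 1.5 times the reported count and 40 did not. Of the values rerun, 372 of 396 shares, 1617 of 1782 levels and 520 of 552 ratios stayed within their intervals. The ratios rerun were those of members past 2-fold in both libraries, and the others were not rerun. The *Nmb* gate with *Slc17a6* and the *Pdgfra* gate without the fibroblast guard moved nothing. Counts below are of members past 2-fold, between classes where 2 are named and otherwise between libraries.

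With at most 10% mitochondrial UMIs, the count was 2 for *Chat* against *Slc32a1*, 1 for *Chat* against *Slc17a6*, and 0 in *Nmb*, *Chat* and *Aqp4* cells. That filter left 2 untreated and 13 4OH-tamoxifen *Nmb* cells, and the *Gria2* share of AMPA UMIs became 66.67% in *Nmb*, 63.97% in *Slc17a6* and 61.56% in *Aqp4* cells of the untreated library and 54.41% in *Aqp4* cells of the 4OH-tamoxifen library. Thinned to 2000 UMIs, the count was 1 for *Chat* against *Slc32a1* and 0 in *Aqp4* and *Gpr17* cells, and the *Gria2* share was 36.36% in *Nmb*, 63.64% in *Slc17a6* and 55.25% in *Slc32a1* cells of the untreated library and 53.02% in *Mog* cells of the 4OH-tamoxifen library. The order of the untreated *Nmb* and *Slc32a1* shares turned after thinning.

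A ratio of 3, stricter by construction, gave 1 for *Pdgfra* against *Aqp4*, 1 for *Gpr17* against *Pdgfra*, 3 for *Mog* against *Gpr17*, and 0 in *Nmb*, *Chat*, *Aqp4*, *Gpr17* and *C1qa* cells. With 5 added to each CPM, which shrinks ratios of low levels, the count was 0 in *Aqp4*, *Gpr17* and *C1qa* cells. A minimum of 10 UMIs, which lets more genes in, gave 4 in *Nmb*, 1 in *Pdgfra* and 2 in *Gpr17* cells.

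For the rest the cause was not tested. With 1 UMI more for every marker the count was 4 in *Chat*, 0 in *Gpr17* and 1 in *Mog* cells, and the *Gria2* share 36.9% in *C1qa* cells of the 4OH-tamoxifen library. The mean of each cell's CPM gave 3 in *Chat*, 0 in *Aqp4* and 1 in *Mog* cells, and *Gria2* shares of 64.86% in untreated *Slc17a6* and 53.01% in 4OH-tamoxifen *Mog* cells. With at least 500 genes the count was 0 in *Aqp4* and 1 in *Mog* cells. With at least 1200 genes it was 2 in *Aqp4*, 0 in *Gpr17*, 1 in *Mog* and 1 in *C1qa* cells, and the *Gria2* share in *Aqp4* cells 61.06% (untreated) and 53% (4OH-tamoxifen). Classes taken from the nearest neighbours gave 0 in *Aqp4*, 1 in *Pdgfra*, 0 in *Gpr17* and 3 in *Mog* cells, and a *Gria2* share of 66.28% in untreated *Slc17a6* cells. Without Scrublet, and with a total that leaves out mitochondrial genes and *Malat1*, the count was 1 in *Mog* cells.

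The *Grin2b* share of *Grin2a* and *Grin2b* UMIs also left its interval. With at most 10% mitochondrial UMIs it was 100% in *Nmb* and 66.67% in *Chat* cells of the 4OH-tamoxifen library. After thinning it was 83.33% in *Chat* and 0% in *Pdgfra* and *Gpr17* cells of the untreated library. With 1 UMI more for every marker it was 100% in *Pdgfra* and *Gpr17* and 0% in *Mog* cells of the untreated library. Nearest neighbours gave 0% in untreated *Mog* and 78.05% in 4OH-tamoxifen *Aqp4* cells. The cause was not tested.

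The libraries have limits that no alternative removes. Each condition is 1 library of pooled mice, so differences between mice were not measured and treatment and batch cannot be told apart. The intervals hold counting error only. Cell numbers limit the *Nmb*, *Slc17a6* and *Chat* values of the untreated library most, with 22, 20 and 19 cells. Neuronal RNA was found in every class, and its part in the low levels of *C1qa* and *Mog* cells was not tested. Gates on single marker UMIs leave 1314 and 3280 cells without a class. Counts at the 3′ ends show neither splice forms nor RNA editing, and protein was not measured.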
